A study of Mus musculus with 10 samples.

Results

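A set of 10 genes of the triggering receptor expressed on myeloid cells (TREM) family and of the paired immunoglobulin-like receptors was examined in mouse peritoneal macrophages given oxidized low-density lipoprotein (ox-LDL). They were found by NCBI Gene ID and symbol among the 39488 rows of the deposited gene table, and all 10 had a row. Tarm1 was chosen by its fold change between the groups in these same libraries, so its values are given as a description without a test, and it is left out of every count below. The other 9 were listed by family and role, not selected on their values. They are the TREM receptors Trem1, Trem2, Trem3 and Treml4, the adaptors Tyrobp and Hcst, the activating receptor Lilra5, and the inhibitory receptors Pirb and Lilrb4a.

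The study sequenced total RNA from macrophages of the peritoneal cavity of C57BL/6 mice aged 8 weeks, elicited with thioglycollate. There were 5 control libraries, which the labels call untreated, and 5 ox-LDL libraries. The ox-LDL libraries were labelled as primed with lipopolysaccharide (LPS) at 100 ng/ml and then kept with ox-LDL at 100 µg/ml for 16 h. A separate protocol field gives 16 h of ox-LDL for every sample, controls included, and the group was taken here from the treatment field. By that field the contrast holds LPS and ox-LDL together, and their effects cannot be told apart. The labels do not tie a library to an animal or a culture, so p-values measure the spread between these libraries, which may be technical. In bulk RNA, fewer cells of one type and less RNA per cell cannot be told apart.

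TREM receptors are single immunoglobulin-domain proteins on the surface of myeloid cells that carry almost no signalling sequence of their own. They pair in the membrane with the adaptor DAP12, encoded by Tyrobp, or with DAP10, encoded by Hcst, and these recruit Syk and phosphoinositide 3-kinase. Paired receptors such as the mouse PIR and LILR proteins come in activating forms, which use an adaptor, and inhibitory forms, which recruit the phosphatases SHP-1 and SHIP-1 through tyrosine motifs in their own tails.

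The codons of these signalling motifs are printed first because they are what an adaptor and an inhibitory receptor are named for. They come from the coding sequences of an mm9 annotation, 5′ to 3′ on the transcript, with the codon of each motif tyrosine in capitals. The first is the paired-tyrosine activation motif (ITAM) of Tyrobp, residues 92 to 106, and the second the YxNM motif of Hcst, residues 72 to 75.

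Tyrobp: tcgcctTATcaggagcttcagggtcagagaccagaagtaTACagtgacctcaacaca
Hcst: agagtcTACatcaacatgcctggc

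The inhibitory motifs (ITIM) are single tyrosines. Pirb had 3 in the last part of its 841 codons, at residues 711 to 716, 792 to 797 and 822 to 827, and Lilrb4a had 2 among the last of its 335 codons, at residues 298 to 303 and 320 to 325.

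Pirb motif 1: gaagaaagcctaTATgcttcagtggaggac
Pirb motif 2: caggatgtgaccTATgcccagctgtgcagc
Pirb motif 3: gagcccagtgtaTATgctactctggcggct
Lilrb4a motif 1: cagggaattgtcTACgcccaggtaaaaccc
Lilrb4a motif 2: caggatgtaaccTATgcccagttgtgcatc

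The second motifs of Pirb and Lilrb4a were identical in 27 of these 30 bases. Over the whole coding sequences, ITAM and YxNM patterns were found once each and in no other of the 10 genes. The ITIM pattern also matched once in Tyrobp, where it overlaps the ITAM, once in Treml4, once in Tarm1, and once more in each of Pirb and Lilrb4a. A pattern match is a description of letters and not a functional site.

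In mm9, the 4 TREM genes lie on the plus strand of chromosome 17 within 121570 bases. They are Trem1 at chr17:48371903-48386091, Trem3 at chr17:48386944-48398207, Treml4 at chr17:48403659-48414726 and Trem2 at chr17:48485726-48493472. The adaptors are neighbours on chromosome 7 on opposite strands, with Tyrobp at chr7:31198807-31202596 (plus) and Hcst at chr7:31202732-31204873 (minus), 135 bases apart. Tarm1 at chr7:3489960-3503346 (minus), Pirb at chr7:3663011-3671993 (minus) and Lilra5 at chr7:4189356-4195065 (plus) lie together near the start of that chromosome. Lilrb4a lies alone at chr10:51200446-51216419 (plus). The annotation of that build names Pirb as Lilrb3 and Lilrb4a as Lilrb4.

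Depth was even, at 20094647 to 20687289 counts in the control libraries and 19257131 to 20358017 in the ox-LDL libraries. Library-scaled counts (CPM, set to a common library total with trimmed mean of M values, TMM) are used to compare one gene between libraries, and deposited FPKM, which divides by transcript length, to compare genes. The scaling factors ran from 0.593 in ox-LDL library 2 to 1.19 in ox-LDL library 1. Within each group, libraries differed in how their levels followed transcript length. A gene's deviation was taken from the mean of its own group, so the values compare libraries within a group and not across groups. Among the controls, short transcripts were relatively high in libraries 1 and 4 (Spearman correlation of deviation with length -0.572 and -0.462 across genes). The other controls had 0.344 to 0.463. Among the ox-LDL libraries, short transcripts were relatively high in library 2 (-0.647), and the others had 0.0555 to 0.518. Tyrobp, Hcst and Trem2 are short, with lengths of 435, 311 and 956 bases implied by count and FPKM. Values with and without ox-LDL library 2, and from fits without control library 1 or 4, are therefore given for each of them. The part of length in those values was not tested beyond a fit with the trend removed.

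Macrophage markers were present in all 10 libraries. Lyz2, which encodes lysozyme, had a CPM of 17493 to 44725 in controls and 8713 to 44490.3 in ox-LDL libraries, and the macrophage markers Adgre1 and Cd68 had at least 3521 and 21118 counts in every library. Of 9 natural killer and T cell markers, 5 (Ncr1, Eomes, Prf1, Cd3e and Cd3g) had at most 3 counts in any library. Summed CPM of that list was 0.258 to 0.999 in controls and 0.0488 to 1.71 in ox-LDL libraries. The neutrophil granule genes Elane and Mpo also had at most 3 counts, while the summed CPM of 11 matched neutrophil markers was 66.8 to 119 and 66.5 to 241. Monocyte markers summed to 226 in control library 5 and 352 in ox-LDL library 5, against 15.1 to 63.7 in the other 8 libraries. Most of the sum in these 2 libraries was Chil3 (210 and 293).

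The order of levels put an adaptor and 2 receptors among the most abundant transcripts of these macrophages. In the controls Tyrobp had the highest FPKM of the 10 genes, 5849 ± 1207 (SD, n = 5), ranking 14 of 23382 genes with an NCBI identifier. Trem2 with 1618 ± 281 and Lilrb4a with 1420.3 ± 267 followed and overlapped each other, ahead of Pirb with 227 ± 22.9 and Hcst with 51.2 ± 13.3. The remaining 5 genes had mean FPKM between 0 (Trem1) and 0.574 (Tarm1). In the ox-LDL libraries Lilrb4a with 2149 ± 485 and Tyrobp with 2007 ± 856 overlapped at the top, and Trem2 was at 373 ± 102, above Pirb at 181 ± 69.6. Tarm1 followed with 92.9 ± 99.6 and Hcst with 43.3 ± 41.1, whose ranges overlapped. Treml4 was at 4.95 ± 3.22, Trem3 at 0.898 ± 1.09, Lilra5 at 0.102 ± 0.0963 and Trem1 at 0.024 ± 0.0182. Lilrb4a went from rank 90 to rank 46, and Trem2 went from rank 72 to rank 296.

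**Figure D1:**
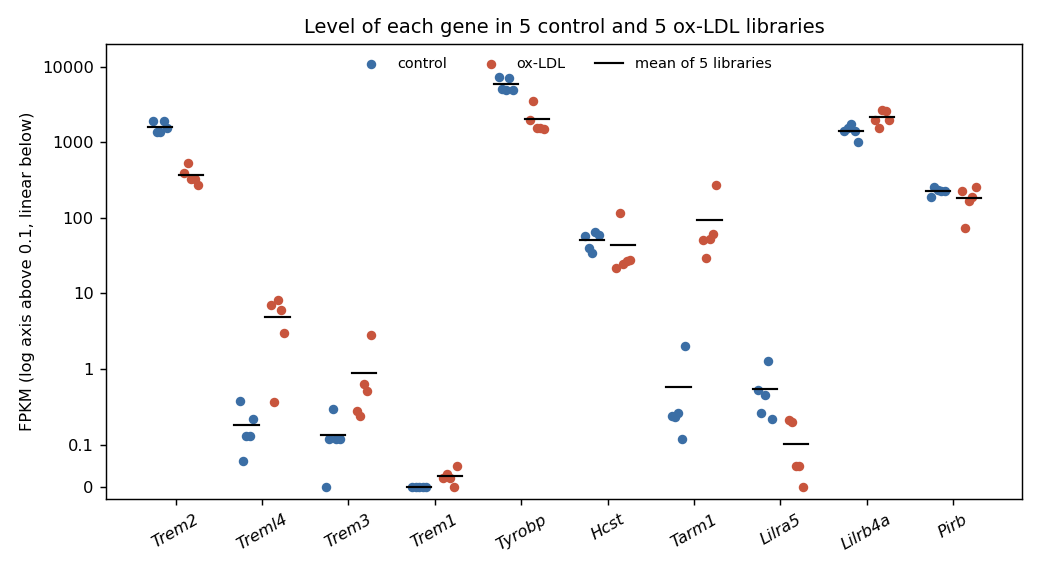
FPKM of each of the 10 genes (log axis above 0.1, linear below) in 5 control and 5 ox-LDL libraries, one point per library, with the group mean as a bar. The levels of Trem2 and Tyrobp in the 2 groups do not overlap, and Tarm1 goes from 0.12 to 2.02 in controls to 29.0 to 270.0 with ox-LDL.

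Of the 9 genes listed by family, 6 passed the filter on low counts and were tested with the rest of the table (12654 genes, edgeR quasi-likelihood test, Benjamini-Hochberg adjustment). At an adjusted p below 0.01, 1 was higher with ox-LDL (Treml4; background 9.40% of all genes tested), 1 was lower (Trem2; background 5.35%), and 4 passed in neither direction (background 14.7% called in either). With the further requirement of a log2 fold change beyond 2, which the study used, only Treml4 passed among these 6 (background 4.78% higher, 1.93% lower). Trem1, Trem3 and Lilra5 were too low to be tested. Treml4 passed the filter mainly through the ox-LDL libraries, with 2 to 12 counts in the controls. Passing in that way favours a difference, so its count supports nothing by itself. Of all 9, 3 had CPM ranges that did not overlap and were higher with ox-LDL (Trem3, Treml4 and Lilrb4a; background 11.5%), and 1 was lower (Trem2; background 9.12%, or 20.6% in either direction). On the FPKM scale, none was higher without overlap (background 6.18%) and 3 were lower (Trem2, Tyrobp and Lilra5; background 10.5%). All these shares are over the 12654 genes that passed the filter, which Trem1, Trem3 and Lilra5 did not. The counts without overlap and the shares are therefore not over like genes, and no excess is read from them. The median log2 fold change of all genes tested was 0.0966, and -0.0920 when library size alone replaced the scaling factors. The split of calls moved with it, from 63.7% higher to 54.7%.

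Trem2, a receptor for lipids and apolipoproteins that marks lipid-handling macrophages, fell with ox-LDL. Its CPM was 2040.0, 1143, 1131, 1909 and 1303 in control libraries 1 to 5, and 323, 888, 299, 292 and 313 in ox-LDL libraries 1 to 5. The lowest control stood above the highest ox-LDL library, which was library 2, and controls 1 and 4 were the highest. In FPKM, where library 2 was closer to its group, the controls ran from 1353 to 1921 and the ox-LDL libraries from 271 to 537. The log2 fold change was -1.83 (SE 0.38, adjusted p = 0.00382), a level 3.56-fold lower with ox-LDL. Without ox-LDL library 2 it was -2.34 (adjusted p = 3.38e-05), and with the length trend removed -1.83 (adjusted p = 4.70e-06). The adjusted p lay between 0.0114 and 0.0170, above the threshold, when control library 1 or 4 or ox-LDL library 3, 4 or 5 was left out. Over all alternatives it ran from 4.70e-06 to 0.0170, with Trem2 lower in each.

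Treml4, a TREM-like receptor of dendritic cells and macrophages that binds dying cells, was near the counting floor in controls. It had 12, 2, 4, 4 and 7 counts in control libraries 1 to 5, and 220, 12, 259, 183 and 98.3 in ox-LDL libraries 1 to 5. Ox-LDL library 2 and control library 1 therefore held the same 12 counts. Only the scaling factor set them apart, with a CPM of 1.03 and 0.664, and in FPKM they crossed (0.37 and 0.38). The other 4 ox-LDL libraries had a CPM of 5.87 to 12.6. The log2 fold change was 4.74 (SE 0.67, adjusted p = 3.77e-04), without ox-LDL library 2 it was 4.98 (adjusted p = 1.70e-05), and the adjusted p ran from 9.55e-13 to 0.0182 over the alternatives. The dendritic cell markers summed to a CPM of 1.55 to 2.82 in controls and 2.73 to 4.67 with ox-LDL. They did not move together. Clec9a had 4.78 to 11.07 counts in the controls and 16.46 to 41.58 with ox-LDL. Cd209a had 3 to 38 in the controls and 0 to 1 with ox-LDL. Ox-LDL library 2, the lowest of its group for Treml4, shared the highest sum (4.67) with library 5. The part of these markers in the Treml4 values was not tested.

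Trem1, the receptor that amplifies Toll-like receptor signals in neutrophils and monocytes, was at or near 0 throughout. It had 0 counts in all 5 controls and 1, 2, 1, 0 and 3 counts in ox-LDL libraries 1 to 5. No library exceeded 3 counts, the limit that a count of 0 allows, so no fold change is given and no ratio to Trem2 could be formed. A difference in Trem1 was not detectable at this depth.

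Trem3, a DAP12-coupled mouse relative of Trem1, was also low. It had 0, 2, 5, 2 and 2 counts in the controls and 5, 4, 11, 9 and 52 in the ox-LDL libraries. The CPM of the groups touched without overlapping, at 0.214 in control library 3 and 0.217 in ox-LDL library 1, from 5 counts each, and the FPKM overlapped. Ox-LDL library 5 stood far above the rest with a CPM of 3.11, and it was also the library with the highest summed monocyte markers. Chil3 held most of that sum (CPM 293), and the markers did not move together. Ccr2 had 38 to 134 counts in the controls and 0 to 8 with ox-LDL. Ly6c2 had 1 to 145 counts in the controls and 797 in ox-LDL library 5. Control library 5 had the next highest sum of the monocyte markers (226) and 2 counts of Trem3. The part of those markers in the Trem3 value was not tested. Fitted without a filter on low counts, Trem3 had a log2 fold change of 3.07 and an adjusted p of 0.0101, just above the threshold.

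Tyrobp, the ITAM adaptor that TREM receptors depend on for surface expression and signalling, had the highest mean FPKM of the set in the controls, and Lilrb4a in the ox-LDL libraries. Its CPM was 3544, 1928, 1855, 3234 and 1906 in the controls and 719, 2663, 633, 633 and 775 with ox-LDL. Ox-LDL library 2 lay inside the control range, and the other 4 ox-LDL libraries lay below all controls. In FPKM the groups did not overlap, with 4938 to 7239 in the controls and 1479.7 to 3499 with ox-LDL. The log2 fold change was -1.20 (SE 0.45, adjusted p = 0.0683) and missed the threshold. Without ox-LDL library 2 it was -1.90 (adjusted p = 2.41e-04), and with the length trend removed it was -1.17 with a smaller error (SE 0.14, adjusted p = 6.31e-05). Leaving out a control library with the same trend moved it the other way, to -1.05 without library 1 (adjusted p = 0.149). Without control library 4 it was -1.10 (adjusted p = 0.140). With library size alone it was -1.55 (adjusted p = 0.00195). On log2(FPKM + 1) with limma it was -1.60 (adjusted p = 8.93e-04). Over all alternatives the adjusted p ran from 6.31e-05 to 0.167. The call for Tyrobp thus depended on the scaling and on 1 library, while its direction was the same under every alternative.

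Hcst, the DAP10 adaptor that couples to phosphoinositide 3-kinase, had no stable direction. Its CPM was 20.3, 10.9, 9.20, 21.2 and 16.2 in the controls and 5.61, 63.9, 7.26, 7.70 and 10.2 with ox-LDL. Ox-LDL library 2 was the highest of all 10, and the other 4 overlapped the lowest controls only through library 5. The log2 fold change was 0.27 (SE 0.63, adjusted p = 0.797). Without ox-LDL library 2 it was -1.06 (SE 0.28, adjusted p = 0.0109), the opposite sign. Without control library 1 it was 0.38 (SE 0.70), and without control library 4 it was 0.40 (SE 0.70). With the length trend removed it was -0.08 (SE 0.20, adjusted p = 0.787). Over all alternatives the adjusted p ran from 0.0109 to 0.929.

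**Figure D2:**
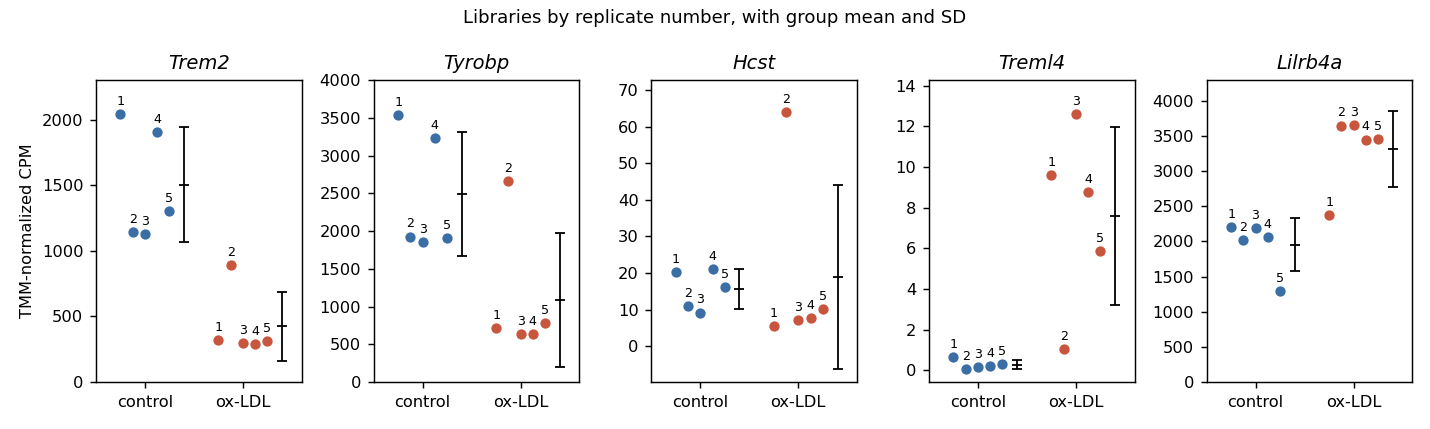
TMM-normalized CPM of 5 genes in each library, numbered by replicate, with the group mean and SD (n = 5 per group) as a bar at the right of each group. Ox-LDL library 2 is the highest of its group for Trem2 (888), Tyrobp (2663) and Hcst (63.9), and the lowest for Treml4 (1.03).

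Receptor and adaptor levels were also set against each other within a library, where the scaling factor cancels. Trem2 FPKM was 26.4%, 26.9%, 27.7%, 27.1% and 31.2% of Tyrobp FPKM in the controls, and 20.3%, 15.3%, 21.4%, 21.1% and 18.3% with ox-LDL. The groups did not overlap, so Trem2 was lower relative to its adaptor with ox-LDL. Hcst FPKM was 0.695% to 1.19% of Tyrobp FPKM in the controls and 1.10% to 3.34% with ox-LDL. Control library 5 (1.19%) exceeded ox-LDL library 1 (1.10%), so these groups overlapped. The mean log2 ratio of Hcst to Tyrobp was -6.86 ± 0.30 in the controls and -5.80 ± 0.58 with ox-LDL, a difference of 1.05 that stayed between 0.83 and 1.23 when single libraries were left out. Both ratios are descriptions without a test.

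Tarm1, a receptor on activated myeloid cells that signals through the Fc receptor γ chain rather than DAP12, was chosen for its rise. It had 4, 5, 5, 2 and 44 counts in control libraries 1 to 5 and 1022, 535, 1114, 1218 and 5807 in ox-LDL libraries 1 to 5. In CPM the controls were 0.221, 0.214, 0.214, 0.103 and 1.91, and the ox-LDL libraries 44.4, 45.8, 54.3, 58.3 and 347. The mean CPM with ox-LDL was 206-fold that of the controls, and this fold was decided by single libraries. It was 585 without control library 5, 95.2 without ox-LDL library 5 and 270.0 without both. The library numbered 5 was the highest of each group, though nothing in the labels ties libraries with the same number. Tarm1 had 2 to 5 counts in the first 4 controls, near the floor of 3 counts, so the size of the fold rests on few counts. By log2 fold change it ranked 23 of 12654, and its mean FPKM moved from rank 10827 to rank 935 of 23382. The tested genes whose centred log2(CPM + 1) values lay closest to those of Tarm1 over the 10 libraries included Il12b (root mean square difference 0.407), Clic5 (0.479), Socs3 (0.514) and Rsad2 (0.528). For Trem2 they were Calm2 (0.187), Cd48 (0.236), Gm5547 (0.237), Ssc4d (0.254) and Msra (0.262). Trem1 was too low for such a comparison.

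Lilra5, an activating LILR that uses the Fc receptor γ chain, was low in both groups. It had 23, 11, 18, 51 and 9 counts in the controls and 8, 8, 2, 2 and 0 in the ox-LDL libraries. Every count with ox-LDL was below every control count, and the FPKM did not overlap (0.22 to 1.26 against 0 to 0.21). The CPM did overlap, because ox-LDL library 2 at 0.685 passed control libraries 2 and 5 at 0.471 and 0.391. It did not pass the filter on low counts. Fitted without the filter it had a log2 fold change of -2.30 and an adjusted p of 0.0416. Without both control library 5 and ox-LDL library 2 it passed the filter and the threshold, at -3.14 (adjusted p = 0.00836). Over the alternatives that could be fitted to it, the adjusted p ran from 0.00836 to 0.119.

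Lilrb4a, an inhibitory receptor with a pair of ITIMs that restrains myeloid activation, was among the most abundant receptors. Its CPM was 2204, 2027, 2196, 2062 and 1292 in the controls and 2376, 3651, 3662, 3452 and 3454 with ox-LDL. No ox-LDL library fell to the control range. In FPKM, ox-LDL library 2 (1528) lay below control libraries 2 and 3 (1568 and 1734). The log2 fold change was 0.76 (SE 0.25, adjusted p = 0.0426), past 0.05 but not the threshold of 0.01. With DESeq2 it was 0.76 (adjusted p = 0.00252) and with the length trend removed 0.87 (adjusted p = 0.00416). Over all alternatives the adjusted p ran from 0.00252 to 0.126. Its paralog Lilr4b (also Gp49a), whose annotation overlaps that of Lilrb4a by 5677 bases, had a log2 fold change of 0.78 (SE 0.26, adjusted p = 0.0424). The log2 ratio of Lilrb4a to Lilr4b counts was 1.05 ± 0.07 in controls and 1.06 ± 0.18 with ox-LDL. The split of reads between these 2 genes is uncertain.

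Pirb, the inhibitory PIR that binds MHC class I, did not pass the test. Its CPM was 548, 579, 520.0, 609 and 524 in the controls and 498, 324, 407, 447 and 794 with ox-LDL. The ox-LDL libraries lay on both sides of the controls, with library 5 the highest and library 2 the lowest of all. The log2 fold change was -0.17 (SE 0.25, adjusted p = 0.664). Pirb shares sequence with the activating Pira genes, and its reads may be split with theirs.

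**Figure D3:**
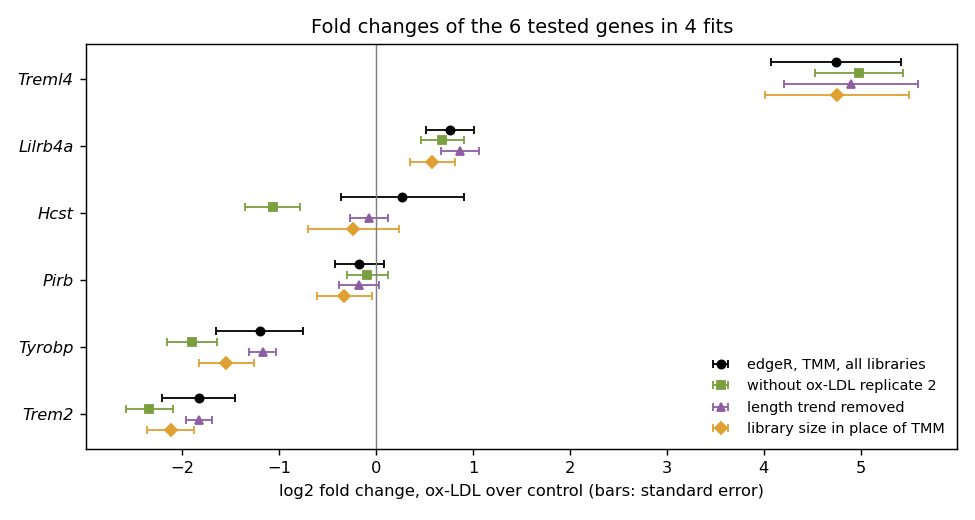
Log2 fold change (ox-LDL over control) of the 6 tested genes in 4 fits, with standard errors as bars. Hcst is above 0 with TMM and all libraries (0.27). It is below 0 without ox-LDL library 2 (-1.06), with the length trend removed (-0.08) and with library size alone (-0.24). Tyrobp moves from -1.20 to -1.90 without ox-LDL library 2. Trem2 lies below 0 and Treml4 and Lilrb4a above 0 in all 4 fits.

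The promoters of the member that fell and of those that were higher are printed because their levels moved in opposite directions between the same groups of libraries. RefSeq windows (GRCm38.p6, from 250 bases before to 50 after the start) were matched for 7 of the 10 genes. The PU.1 core GAGGAA on either strand is in capitals. The windows are chr17:48346151-48346450 (plus) for Trem2, chr17:48264045-48264344 (plus) for Treml4 and chr7:3502575-3502874 (minus) for Tarm1.

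Trem2: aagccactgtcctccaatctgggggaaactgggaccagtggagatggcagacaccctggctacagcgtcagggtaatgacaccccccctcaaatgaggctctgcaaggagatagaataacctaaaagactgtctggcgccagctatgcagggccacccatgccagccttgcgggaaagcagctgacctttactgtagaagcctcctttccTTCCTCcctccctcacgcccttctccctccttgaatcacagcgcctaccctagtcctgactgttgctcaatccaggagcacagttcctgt
Treml4: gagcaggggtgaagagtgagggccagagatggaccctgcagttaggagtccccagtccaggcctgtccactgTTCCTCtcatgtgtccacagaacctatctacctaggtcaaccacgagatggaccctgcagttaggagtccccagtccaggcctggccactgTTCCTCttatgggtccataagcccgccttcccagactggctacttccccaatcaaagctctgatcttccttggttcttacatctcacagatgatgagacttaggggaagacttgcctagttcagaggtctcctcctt
Tarm1: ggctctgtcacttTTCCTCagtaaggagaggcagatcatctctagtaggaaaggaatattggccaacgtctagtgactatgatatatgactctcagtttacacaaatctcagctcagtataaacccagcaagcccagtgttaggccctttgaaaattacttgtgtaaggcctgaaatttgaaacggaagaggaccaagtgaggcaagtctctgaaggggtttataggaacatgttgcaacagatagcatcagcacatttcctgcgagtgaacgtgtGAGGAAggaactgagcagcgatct

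The core was present 1 time in Trem2, 2 times in Treml4 and 2 times in Tarm1, and 28.3% of all 27025 promoter windows held it. It also occurred in Trem1 (1), Lilra5 (1) and Pirb (3), and not in Hcst. The AP-1 letters TGANTCA occurred 1 time in Trem2 and in no other of the 7 windows, against 7.93% of all windows. An NF-kB motif occurred in Lilra5 (1) and Pirb (3), against 50.4% of all windows, and an interferon response motif (ISRE) in none of the 7, against 3.49%. Both strands were searched, and a GAGGAA match can overlap an ISRE match. These matches are descriptions of the letters in the windows.

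Around these 10 genes, the related receptors moved in both directions. Of 17 other TREM and DAP12-coupled receptors, 14 were tested, 2 were higher and 4 lower, with a median log2 fold change of 0.02 (all genes tested: 9.40% higher, 5.35% lower, median 0.0966). The balance was not stable, with 4 higher and 3 lower without ox-LDL library 2, and 3 and 3 with library size alone. Clec4e (Mincle), a glycolipid receptor that in fact signals through the Fc receptor γ chain, had a CPM of 33.6 to 97.4 in the controls and 2771 to 8796 with ox-LDL (log2 fold change 7.05, SE 0.51, adjusted p = 5.62e-06). Pilrb1, an activating paired receptor, had a CPM of 6.43 to 11.3 in the controls and 34.5 to 180.0 with ox-LDL (2.95, SE 0.47, adjusted p = 7.53e-04). Cd300lb fell, with a CPM of 365 to 427 in the controls and 45.9 to 87.4 with ox-LDL (-2.37, SE 0.22, adjusted p = 2.72e-05), and Cd300ld (-1.65, SE 0.29) and Sirpb1c (-3.19, SE 0.72) fell too. The fourth, Sirpb1b, is named after its value was seen (-2.71, SE 0.63), and its reads may be shared with Sirpb1c. Clec5a, another DAP12 partner, had a log2 fold change of -0.89 (SE 0.30, adjusted p = 0.0472).

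Of 17 other paired and inhibitory receptors, 13 were matched and 12 tested, and 0 were higher and 5 lower by edgeR, with a median of -0.58. Over all genes tested 9.40% were higher and 5.35% lower. At an unadjusted p below 0.05, 3 were higher and 5 lower, DESeq2 called 2 higher and 5 lower, and limma-voom 0 and 5. The activating receptors Lilra6 (-1.93, SE 0.26, adjusted p = 2.87e-04) and Pira2 (-1.77, SE 0.27, adjusted p = 5.71e-04) fell. Lair1, an inhibitory collagen receptor, fell, with a CPM of 125 to 231 in the controls and 44.6 to 69.1 with ox-LDL (-1.50, SE 0.22, adjusted p = 5.27e-04). The others, named after their values were seen, were the inhibitory receptors Ceacam1 (-1.96, SE 0.32) and Cd200r1 (-1.81, SE 0.39).

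Downstream of DAP12 and DAP10, 29 of 30 signalling genes were tested, 3 were higher and 2 lower, with a median of -0.07. These counts are near the shares over all genes tested (9.40% and 5.35%), and they were 6 and 4 without ox-LDL library 2. Src, a kinase that phosphorylates ITAM tyrosines, was higher (4.09, SE 0.38, adjusted p = 2.74e-05), with a CPM of 2.13 to 3.21 in the controls and 18.8 to 73.3 with ox-LDL. The scaffold Lcp2 (SLP-76; 2.30, SE 0.26, adjusted p = 8.85e-05) and Malt1, which links ITAM receptors to NF-kB (2.67, SE 0.45, adjusted p = 0.00121), were higher as well. The kinase Tec (-1.06, SE 0.16, adjusted p = 5.00e-04) and the scaffold Lat (-2.19, SE 0.48, adjusted p = 0.00518) were lower. Syk, the kinase recruited by DAP12, had a log2 fold change of 1.07 (SE 0.32, adjusted p = 0.0278). Fcer1g, the Fc receptor γ chain used by Tarm1 and Lilra5, had one of 0.49 (SE 0.41, adjusted p = 0.423).

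On the inhibitory side, 11 genes were tested, 0 were higher and 2 lower by edgeR, with a median of 0.18, against 9.40% and 5.35% of all genes tested. At an unadjusted p below 0.05, 1 was higher and 3 lower, DESeq2 called 0 and 3, and limma-voom 0 and 2. Dok2, an adaptor that dampens kinase signalling, fell, with a CPM of 83.4 to 123 in the controls and 13.8 to 24.9 with ox-LDL (-2.37, SE 0.22, adjusted p = 2.63e-05). Sh2d1b1 (EAT-2), a SLAM-family adaptor with both activating and inhibitory roles, fell, with a CPM of 7.49 to 25.8 in the controls and 0 to 1.61 with ox-LDL (-4.86, SE 0.75, adjusted p = 6.39e-04). It passed the filter on low counts mainly through the controls. Passing in that way favours a difference, so its call supports nothing by itself. The phosphatases that ITIM receptors recruit had values near 0, with Ptpn6 (SHP-1) at 0.00 (SE 0.23, adjusted p = 0.992) and Inpp5d (SHIP-1) at 0.02 (SE 0.29, adjusted p = 0.976).

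Among 22 ligands and shedding enzymes, 19 were tested, 4 were higher and 1 lower, with a median of 0.59, against 9.40% and 5.35% of all genes tested. With library size alone 2 were higher and 0 lower, and with limma-voom 4 and 1. The MHC class I gene H2-K1, whose product PIR-B binds, was higher (1.87, SE 0.34, adjusted p = 0.00169), with a CPM of 420.0 to 767 in the controls and 1361 to 3492 with ox-LDL. Clu, an apolipoprotein that Trem2 binds, was higher (2.43, SE 0.53, adjusted p = 0.00539). Col1a1, a chain of the collagens that Lair1 binds, was higher, with a CPM of 1.07 to 4.56 in the controls and 8.65 to 29.7 with ox-LDL (2.72, SE 0.46, adjusted p = 0.00120). Summed markers of mesothelial and stromal cells were 13.0 to 47.3 in controls and 95.1 to 129 with ox-LDL. Dcn held most of that sum (CPM 9.33 to 38.3 and 56.6 to 91.6). Of 4 tested, 2 were called higher (Dcn and Col1a2) and 0 lower. The mesothelial marker Upk3b, too low to be tested, had 6 to 17 counts in the controls and 0 to 5 with ox-LDL. The part of these markers in the Col1a1 values was not tested. Adam10, which sheds the Trem2 ectodomain, was lower (-0.95, SE 0.21, adjusted p = 0.00556). Its partner in shedding Adam17 had a log2 fold change of 0.59 (SE 0.23, adjusted p = 0.0817), and Apoe, a Trem2 ligand, one of -0.50 (SE 0.54, adjusted p = 0.532). Pglyrp1, a Trem1 ligand, was too low to be tested. Genes of the MHC class I, Pira, Sirpb1 and Cd300 families share sequence with close copies, so their counts are uncertain.

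**Figure D4:**
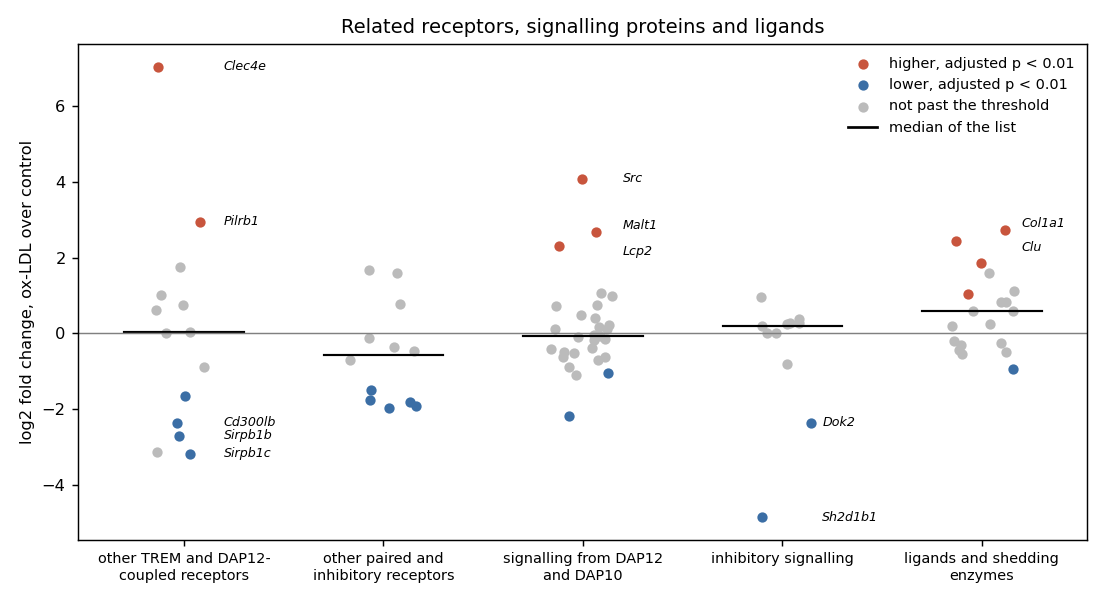
Log2 fold change (ox-LDL over control) of each tested gene in 5 lists of related receptors, signalling genes and ligands, with the list median as a bar and coloured points for genes past an adjusted p of 0.01. Clec4e (7.05) and Sh2d1b1 (-4.86) lie farthest from 0, and the medians run from -0.58 to 0.59.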

How the data were processed

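Per the labels, total RNA was sequenced on a BGISEQ-500, and the submitters' processing notes name FastQC, HISAT2 2.0.5, SAMtools 1.4, StringTie 1.3.3.13 and mm9. The authors deposited 1 table with an estimated count for each gene and library (13.6% of them fractional), and FPKM separately for each library. The FPKM unit was read from the values: for 7146 genes with at least 100 counts in each library, count over depth and FPKM implied a length that varied by a median of 4.0% over libraries. Strand use is not given in the sources used here. The 9788 circular RNA rows were left out.

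Counts were rounded and tested with edgeR 4.0.16 (R 4.3.3; TMM, filterByExpr, robust quasi-likelihood fit, Benjamini-Hochberg over 12654 genes, adjusted p below 0.01), which was tested on simulated data first. The simulated data held no length trend and no library that stood apart, so they do not show how the test handles these. The study names no test for its RNA-seq counts, so its cutoffs were kept. Alternatives used limma 3.58.1, DESeq2 1.42.0, other scalings and filters, a fit with each library's trend on gene length removed, a replicate block, and libraries left out. FPKM was tested with limma on log2(FPKM + 1) for genes that reached 1 in 5 libraries or more. The fold change on that scale understates the change of low genes. Biological coefficient of variation was 37.3%. At this depth (given in the report) counting error matters mainly for the low genes, and p-values there rest on few counts.

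The members and lists were chosen with earlier results of these data known. All members were named, and from each list up to 3 genes called higher and 3 called lower with the smallest p, plus named ligands and partners; some genes that the rule names are not reported here. Positions and coding sequences are from an mm9 gene annotation, the coding sequences translated to find motifs, and promoters from RefSeq. ITAM was searched as a pair of tyrosines each followed by any 2 residues and leucine or isoleucine and 6 to 12 residues apart, ITIM as isoleucine, valine, leucine or serine, any residue, tyrosine, any 2 residues and leucine, isoleucine or valine.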

Additional observations from a re-analysis of the deposited data

Results flagged for a closer look

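Of the 19 groups of 5 libraries with non-zero values, 8 held a library at the edge by the test for outliers used. For normally distributed values chance would give about 0.95. The test takes the distance of the highest or lowest library to its nearest neighbour as a share of the whole range of the group. About 1 group in 20 passes by chance where values are normally distributed, which was not checked for these CPM values. Genes of one library are not independent either, so no excess is read from the count.

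Ox-LDL library 2 was the highest of its group for 3 genes. The share was 0.949 for Trem2 (CPM 888, next 323), 0.930 for Tyrobp (2663, next 775) and 0.922 for Hcst (63.9, next 10.2). Within its group it is the library with the strongest trend of level on transcript length (-0.647). The part of that trend in these values was not tested beyond the fit that removes it.

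Ox-LDL library 5 was the highest of its group for Trem3, with a share of 0.890 (CPM 3.11, next 0.536), and for Tarm1, with a share of 0.954 (347, next 58.3). Control library 5 was the highest control for Tarm1, with a share of 0.935 (CPM 1.91, next 0.221), and the lowest for Lilrb4a, with a share of 0.805 (1292, next 2027). Ox-LDL library 1 was the lowest of its group for Lilrb4a, with a share of 0.836 (2376, next 3452).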

How the results depend on the processing

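Of the 6 tested genes, Trem2, Treml4, Tyrobp, Lilrb4a and Pirb kept their direction under every alternative run. Hcst changed sign under 9 of 24 alternatives. Its log2 fold change was -0.24 with library size alone, -0.45 with limma-voom, -0.53 on log2(FPKM + 1) with or without the filter, -0.55 on log2(FPKM + 0.1), -0.076 with the length trend removed, and -1.03 without that library and control library 5. This last alternative was chosen after seeing the data. With single libraries left out it ran from -1.06, without ox-LDL library 2, to 0.50.

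Of the 9 genes listed by family, 1 was called higher. That count was 2 with DESeq2, with the length trend removed and at an adjusted p below 0.05, and 0 in the 3 limma fits on FPKM and with at least 10 counts in every library, where Treml4 was not tested or missed the threshold. The count called lower was 1. It was 2 with library size alone, in the 3 FPKM fits and with the length trend removed, 3 without the 2 libraries named above (Trem2, Tyrobp and Lilra5), 0 with a log2 fold change beyond 2 required, and 0 to 2 with single libraries left out. No other filter, scaling or threshold tried moved these counts.

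Over all genes tested, 1189 were higher and 677 lower. The higher count was 704 with library size alone, 555, 543 and 472 in the FPKM fits with pseudocounts of 1 and 0.1 and without a filter, 1843 without the 2 libraries and 826 to 1755 with single libraries left out. The lower count was 1244 with DESeq2, 1221 with the length trend removed, 1483 without the 2 libraries and 436 to 1502 with single libraries left out. Of all calls, 63.7% were higher, against 54.2% with upper-quartile scaling and 42.5% to 46.0% on FPKM, where the median of all genes was -0.136 with a pseudocount of 1. In the related lists together, 9 genes were higher (17 with DESeq2, 15 without the 2 libraries, 7 to 15 with single libraries left out) and 14 lower (9 to 17 with single libraries left out). The cause of these differences was not tested.

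Same-numbered libraries did not deviate together in all pairs (correlations 0.0238, -0.272, 0.443, -0.285 and 0.411), so the numbers are not taken as a pairing. With the replicate block, 1 gene was higher and 1 lower, Trem2 had a log2 fold change of -1.97 (adjusted p = 0.00923) and Hcst one of -0.47, and 885 genes were higher and 549 lower in all. Depth limits Trem1, Trem3 and Lilra5, which had at most 52 counts in any library.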

Other observations

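Control library 5 held 44 counts of Tarm1 against 2 to 5 in the other controls. This is 0.758% of the count in ox-LDL library 5. The 6 genes with at most 5 counts in control libraries 1 to 4 and at least 1000 counts in ox-LDL library 5, Tarm1 among them, had a median of 0.744% (quartiles 0.724% and 0.795%) by the same measure. Where this common share came from was not tested.

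Of the 11 matched neutrophil markers 3 were tested by edgeR, and they did not move together. S100a8 was higher with ox-LDL (log2 fold change 2.76, adjusted p = 0.00310), and Mmp8 (-1.25, adjusted p = 0.0670) and Csf3r (0.27, adjusted p = 0.708) missed the threshold. Among those too low to be tested, Ltf had 8 to 31 counts in the controls and 0 to 2 with ox-LDL, Cxcr2 had 5.99 to 13 and 0 to 2, and S100a9 had 0 counts in 8 of 10 libraries. S100a9 was found in control library 5 (8 counts) and ox-LDL library 5 (5 counts) alone. Markers of resident peritoneal macrophages summed to a CPM of 4.68 to 10.2 in the controls and 3.90 to 5.79 with ox-LDL. Of the 3 that were tested, Timd4 was higher (log2 fold change 3.22, adjusted p = 0.00161), with 0 to 5 counts in the controls and 18 to 43 with ox-LDL, and so passed the filter through the ox-LDL libraries alone. Icam2 (-1.29, adjusted p = 0.0140) and Gata6 (-0.17, adjusted p = 0.802) missed the threshold.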
